A study of Mus musculus with 2 samples.

Results

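Ccl2, Ccl7, Ccl8 and Ccl12 encode the mouse monocyte chemoattractant proteins, and Ccr2 and Cx3cr1 encode the chemokine receptors by which monocyte subsets are usually told apart. These 6 genes, of 32285 in the deposited matrices, were picked by symbol, and their UMIs (unique molecular identifiers, 1 for each captured transcript) were read across cell groups defined by marker genes. The 6 genes were chosen with earlier results of the same libraries known, so their levels are a description and carry no test. The data are single-cell RNA sequencing of CD45+ cells sorted from B16F10-OVA tumours, a mouse melanoma line carrying the ovalbumin antigen, grown under the skin. One group of mice was injected with UDSP-Hep, an agent whose composition the labels do not spell out, on days 10, 12, 14 and 16, and the other group was injected with PBS, the saline vehicle, on the same days. Tumours were harvested on day 19, and the design text also names a sort on PE signal. Each group is 1 library pooled from 3 tumours, with no map from cells to tumours, so no difference below has a replicate check, and intervals cover counting error only. Because every value is a sum over pooled cells, a difference between the libraries cannot be told apart from a difference between any one tumour and the rest.

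The chemoattractants are small secreted CC chemokines that draw monocytes out of the bone marrow and into inflamed tissue and tumours, chiefly through CCR2. Classical monocytes carry much CCR2, lose it as they mature into macrophages, and nonclassical monocytes carry CX3CR1, the receptor of fractalkine, in its place. In tumours, the macrophages that arise from recruited monocytes are themselves a source of these chemokines. In the mouse, CCL8 also acts through CCR8, and Ccl12 has no human counterpart of the same name.

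The 4 ligand genes lie together on the plus strand of chromosome 11 (GRCm38), with Ccl2 at chr11:82035571-82037453, Ccl7 at chr11:82045712-82047525, Ccl12 at chr11:82101845-82103400 and Ccl8 at chr11:82115185-82116799. The stretch from the start of Ccl2 to the end of Ccl8 spans 81.2 kb and holds 5 protein-coding genes, the fifth being Ccl11. Ccr2 is on the plus strand at chr9:124101950-124113557 and Cx3cr1 on the minus strand at chr9:119901616-120069879, which are 4.03 Mb apart. All 6 are protein-coding. The name CC chemokine comes from a pair of adjacent cysteines near the start of the mature protein. The coding sequence around that pair is shown for each ligand because the 4 genes are close relatives whose transcripts must be told apart for the counts to be read. The capitals mark the codons of the adjacent cysteines.
Ccl2: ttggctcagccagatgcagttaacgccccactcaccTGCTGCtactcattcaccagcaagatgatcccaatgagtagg
Ccl7: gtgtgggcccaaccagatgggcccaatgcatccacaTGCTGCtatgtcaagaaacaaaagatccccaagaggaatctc
Ccl8: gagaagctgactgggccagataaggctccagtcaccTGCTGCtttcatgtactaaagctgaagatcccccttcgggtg
Ccl12: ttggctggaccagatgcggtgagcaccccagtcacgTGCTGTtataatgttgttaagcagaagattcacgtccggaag

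Over the aligned bases of their coding sequences, gaps left out, pairs of ligands were between 62.8% identical (Ccl2 and Ccl8) and 70.7% identical (Ccl8 and Ccl12). For Ccl2 and Ccl8 these were 290 bases, of 444 coding bases in the Ccl2 transcript used. No stretch of 50 bases from any of the 4 ligand transcripts occurred in the transcripts of another gene. Of the 6758 stretches of 50 bases in Ccr2 transcripts, 129 occurred elsewhere, and of the 4453 in Cx3cr1 transcripts, 47 did, so a small part of the receptor reads could be split with other genes. Ccl2 overlaps an antisense gene, Gm17268, and the Cx3cr1 annotation overlaps 9 other genes. The sources used here do not say whether reads were counted by strand.

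The UDSP-Hep library held 7872 barcodes with 64241224 UMIs (median 5641 a barcode), and the PBS library held 7379 barcodes with 74685827 UMIs (median 7890). After filters, 7183 UDSP-Hep and 6699 PBS cells remained. Between the libraries 25 barcodes were shared, 19 of them among the cells kept, and leaving these out moved none of the 6 ratios in macrophages and monocytes beyond its counting interval. Cells were clustered with the 6 genes left out, and clusters were named from marker lists, so the names below were rebuilt and are not the authors' own. Macrophages and monocytes numbered 2654 in UDSP-Hep and 3950 in PBS, and their summed markers of T cells were 22.8 and 26.1 CPM (UMIs of a gene per 1000000 UMIs of the cell group). Their summed melanoma markers were 47.1 CPM in UDSP-Hep and 46.5 CPM in PBS. Unnamed cells, in cluster M12, a phagocyte cluster led by the lymphocyte genes Gzma and Nkg7, and in T9, a T cell cluster led by Arg1 and Cxcl9, numbered 268 in UDSP-Hep and 157 in PBS. They carried 16.7% of the Ccl2 UMIs of the UDSP-Hep library and 6.44% of those of PBS, and are outside every class below.

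In macrophages and monocytes together, the 4 chemoattractants were all lower in UDSP-Hep than in PBS, Cx3cr1 was higher, and Ccr2 was nearly level, its small difference changing sign with median-of-ratios scaling (log2 ratio 0.08 as measured, -0.04 so scaled). Ccl2 stood at 889 CPM in UDSP-Hep, against 2014 CPM in PBS, a ratio of 0.442 (95% interval 0.435 to 0.448). Ccl7 had 639 CPM in UDSP-Hep and 1804 CPM in PBS, a ratio of 0.354 (0.348 to 0.360). Ccl8 had 622 CPM in UDSP-Hep and 1557 CPM in PBS, a ratio of 0.399 (0.392 to 0.406). Each of these ligands was thus lower in UDSP-Hep by far more than counting error. Ccl12 had 143 CPM in UDSP-Hep and 402 CPM in PBS, a ratio of 0.355 (0.343 to 0.368). Ccr2 had 877 CPM in UDSP-Hep and 831 CPM in PBS, a ratio of 1.06 (1.04 to 1.07). Cx3cr1 had 104 CPM in UDSP-Hep and 54.3 CPM in PBS, a ratio of 1.92 (1.81 to 2.03).

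A gene was counted as past the fold used here when its ratio reached 1.5 in either direction with at least 50 summed UMIs over both libraries. In macrophages and monocytes, 4 of the 6 genes were past it on the lower side and 1 on the higher side. Of all 11407 genes with enough UMIs, 4.92% were lower and 9.26% were higher, and their median log2 ratio was 0.12, so that relative to the median gene each ligand was lower still. The genes were chosen with these ratios known, so nothing about them is read from that share.

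**Figure D1:**
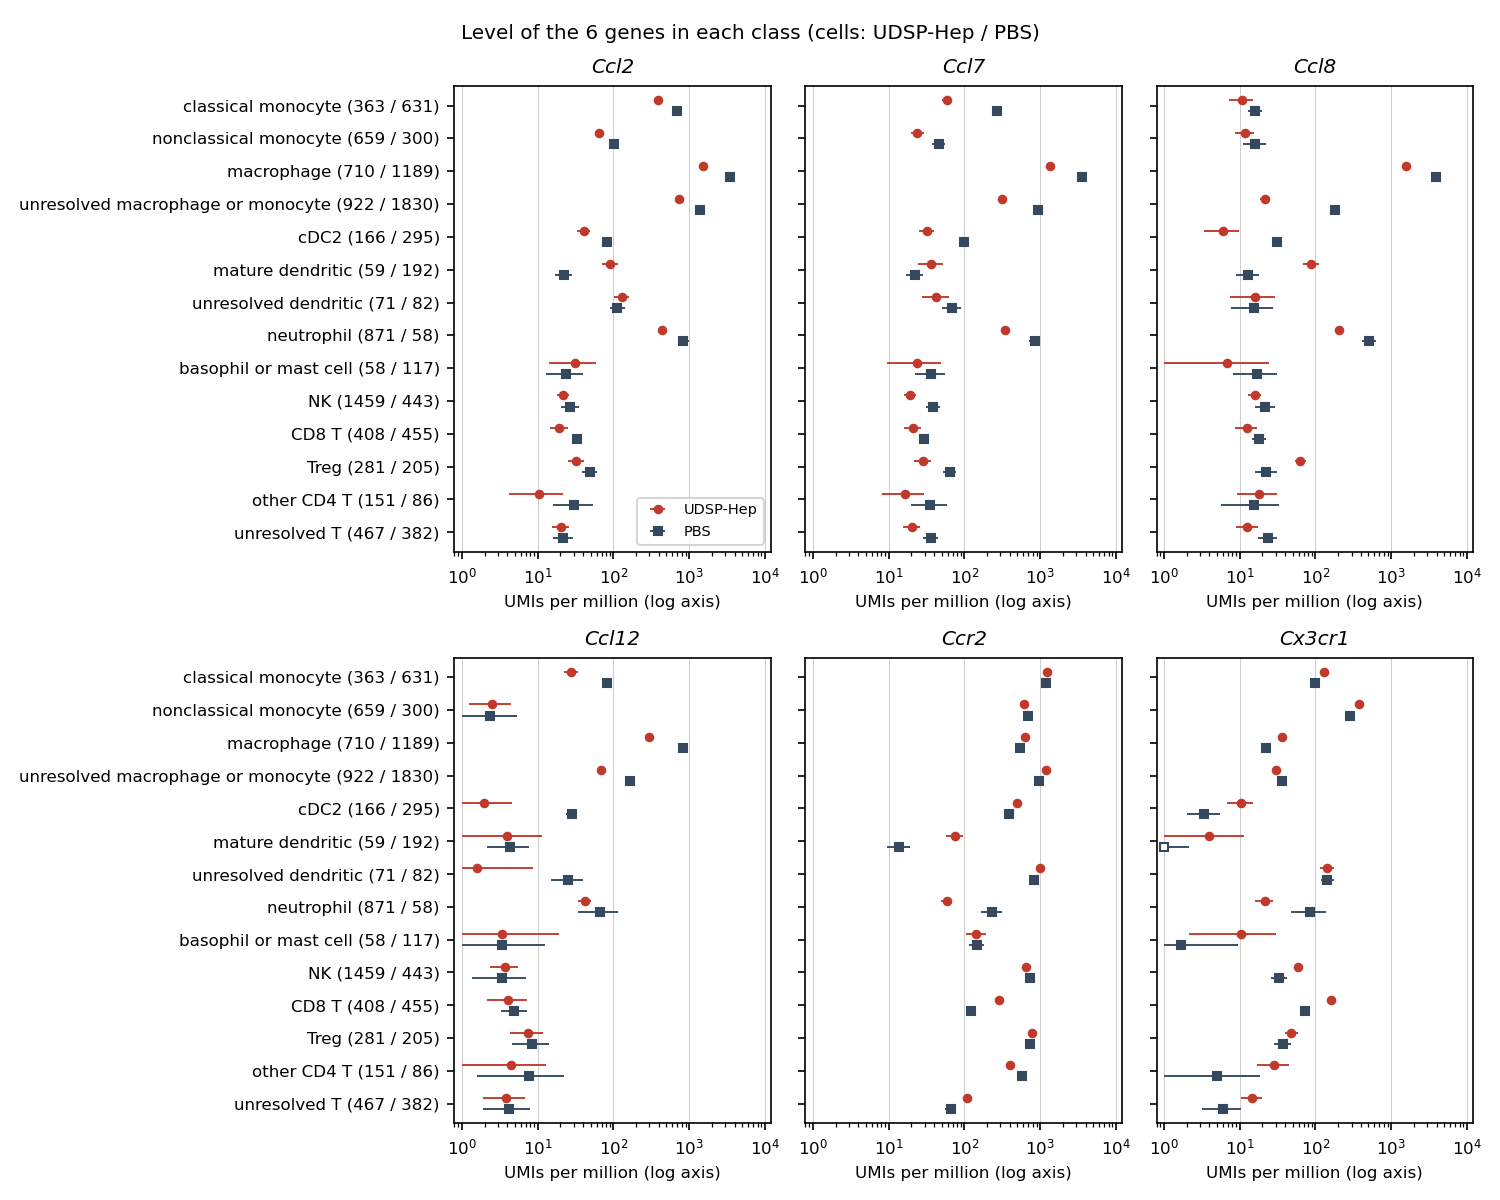
Level of each gene (CPM, log axis) in the 14 cell classes that reached 50 cells in both libraries, with UDSP-Hep as red circles above PBS as dark squares and bars for 95% counting intervals. The ligands lie to the right in the macrophage row and lower in UDSP-Hep there, Ccr2 is highest in classical monocytes in both libraries, and Cx3cr1 is highest in nonclassical monocytes in both.

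Most transcripts of the ligands came from macrophages and monocytes, which made up 36.9% of the UDSP-Hep cells and 59.0% of the PBS cells. This class held 77.5% of the Ccl2 UMIs in UDSP-Hep and 91.5% in PBS, and 76.6% and 86.9% of the Ccl8 UMIs. T and NK cells are not known as a main source of these ligands. Their Ccl2 level was 2.48% of that of macrophages and monocytes in UDSP-Hep and 1.59% in PBS. The part of free RNA in these low levels was not tested, and ligand levels of lymphocytes are not read further.

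Shares of cells with a ligand UMI followed the same direction after each cell was thinned to 1000 UMIs, which left out 20 UDSP-Hep and 45 PBS cells. A UMI of any of the 4 ligands was found in 32.6% of UDSP-Hep and 50.7% of PBS macrophages and monocytes, and in 63.0% and 79.3% without thinning. In T and NK cells the thinned shares were 6.93% in UDSP-Hep and 8.62% in PBS. The median depth of macrophages and monocytes was 8484 UMIs in UDSP-Hep and 8279 in PBS, and that of T and NK cells was 4433.5 and 5244.5. Ccl2 alone was found in 24.4% of thinned UDSP-Hep cells and 39.0% of thinned PBS cells (48.3% and 64.9% unthinned). Ccl8 was found in 6.19% of UDSP-Hep and 15.4% of PBS cells (17.0% and 29.6% unthinned).

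Ligand UMIs were held by few cells, Ccl8 most of all. The 10% of macrophages and monocytes with the most UMIs of Ccl8 carried 98.9% of its UMIs in UDSP-Hep and 96.1% in PBS. The top 10% for Ccl2 carried 76.4% in UDSP-Hep and 68.0% in PBS. No UMI of Ccl8 was seen in 83.0% of the UDSP-Hep and 70.4% of the PBS cells, while its highest single cell held 943 UMIs in UDSP-Hep and 1156 in PBS. The ligands were also found in the same cells, at 2000 UMIs a cell. Ccl7 was detected in 43.6% of UDSP-Hep cells with Ccl2 and 7.38% of those without, and in 61.0% and 13.4% of the corresponding PBS cells. Ccl12 was detected in 20.1% of UDSP-Hep cells with Ccl2 and 3.43% of those without, and in 34.0% and 5.19% in PBS. Cells of 1 library share their free RNA and their clusters, so these shares describe the libraries and are no evidence of joint control.

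Macrophages, named from markers such as C1qa and Apoe, held the highest level of each ligand in both libraries. In this class of 710 UDSP-Hep and 1189 PBS cells, every ligand was lower in UDSP-Hep, by ratios close to those of the whole of macrophages and monocytes. Ccl2 had 1517 CPM in UDSP-Hep and 3506 CPM in PBS (ratio 0.433, 0.425 to 0.441). Ccl7 had 1346 CPM in UDSP-Hep and 3615 CPM in PBS (0.372, 0.365 to 0.379). Ccl8 had 1566 CPM in UDSP-Hep and 3879 CPM in PBS (0.404, 0.397 to 0.411). These ratios are alike, although the genes differ in how many cells carry them. Ccl12 had 299 CPM in UDSP-Hep and 839 CPM in PBS (0.356, 0.342 to 0.371). The class was made of different clusters in the 2 libraries, with 412 UDSP-Hep and 393 PBS cells in M2, 237 and 348 in M4, 38 and 356 in M9 and the rest in M16, a cycling cluster, and these are described below. The summed macrophage markers of the class were 10088 CPM in UDSP-Hep and 10289 CPM in PBS.

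Classical monocytes, named from markers such as Ly6c2 and Vcan, had lower ligand levels than macrophages in both libraries. All 4 ligands were past the fold on the lower side, beside 2.65% of all genes, although Ccl8 rested on 33 UDSP-Hep and 89 PBS UMIs, with an interval from 0.432 to 1.00. Ccl2 had 388 CPM in UDSP-Hep and 691 CPM in PBS (0.562, 0.526 to 0.599). Ccl7 stood apart from Ccl2, with 58.9 CPM in UDSP-Hep and 268 CPM in PBS (0.220, 0.187 to 0.256). Ccl12 had 27.9 CPM in UDSP-Hep and 82.7 CPM in PBS (0.337, 0.265 to 0.424). The class is made of 2 clusters, and they did not move alike. In cluster M11, led by the interferon-induced genes Cxcl10 and Ifit1, Ccl2 had 559 CPM in UDSP-Hep and 1427 CPM in PBS and Ccl7 had 100.2 and 603 CPM. In cluster M3, led by the granule genes Camp and Ngp, Ccl2 had 314 CPM in UDSP-Hep and 212 CPM in PBS.

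Nonclassical monocytes held little of any ligand, with Ccl2 at 64.1 CPM in UDSP-Hep and 103 CPM in PBS. Here 2 of the 6 genes, Ccl2 and Ccl7, were past the fold on the lower side, beside 2.24% of all genes. Under alternative processing their log2 ratios came as near to equality as -0.29 and -0.46, short of the fold. Ccl7, at 23.9 CPM in UDSP-Hep and 45.6 CPM in PBS, was near its level in T and NK cells (21.0 and 37.1 CPM). The part of free RNA in it was not tested. Clusters of macrophages or monocytes with no single best name (922 UDSP-Hep and 1830 PBS cells) lay between monocytes and macrophages in Ccl2, with 746 CPM in UDSP-Hep and 1375 CPM in PBS. All 4 ligands were past the fold on the lower side there, beside 5.42% of all genes. Their Ccl8 had 21.4 CPM in UDSP-Hep and 183 CPM in PBS, a ratio of 0.117 (0.0999 to 0.136).

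Within the macrophages and monocytes the ligands followed the clusters closely. Cluster M9, led by Cd163, Retnla and Gja1, had the highest level of every ligand in both libraries and held 38 UDSP-Hep cells (1.43% of the class) and 356 PBS cells (9.01%). Its Ccl8 stood at 10495 CPM in UDSP-Hep and 8049 CPM in PBS, and its Ccl2 at 4193 and 6286 CPM. Of the 10% of cells with the most Ccl8 UMIs, M9 made up 11.7% in UDSP-Hep and 51.6% in PBS. Cluster M4, led by Mmp12 and Gpnmb, held a nearly equal share of both libraries, 8.93% in UDSP-Hep and 8.81% in PBS. Its cells differed in median depth, with 10965 UMIs in UDSP-Hep and 5760.5 in PBS, and the part of this in the M4 values was not tested. In M4 all 4 ligands were lower, beside 5.82% of all genes, with Ccl2 at 1344 CPM in UDSP-Hep and 2873 CPM in PBS and Ccl12 at 149 and 578 CPM. Ccl8 in M4 had 1457 CPM in UDSP-Hep and 3328 CPM in PBS.

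Other clusters moved apart from this picture. In M2, led by Saa3 and C1qa, Ccl2 had 1378 CPM in UDSP-Hep and 2414 CPM in PBS, but Ccl8 had 754 and 866 CPM (ratio 0.871). In M1, led by Inhba and Nos2, Ccl2 had 1371 CPM in UDSP-Hep and 1642 CPM in PBS (0.835), but Ccl8 had 52.0 and 495 CPM (0.105). M0, led by Ly6i and S100a9, was the largest cluster of UDSP-Hep, with 24.0% of its macrophages and monocytes against 9.70% in PBS. Its Ccl2 was 525 CPM in UDSP-Hep and 442 CPM in PBS, a low level for the class in both. Of 11 clusters with at least 20 cells in each library, Ccl7 was past the fold on the lower side in 7, Ccl2 in 5, Ccl8 in 5 and Ccl12 in 3, while in single clusters between 2.52% and 11.5% of all genes were. Some of these rested on low levels. Ccl8 in M3 had 9.66 CPM in UDSP-Hep and 14.7 CPM in PBS (ratio interval 0.374 to 1.11), under the T and NK cell level (21.9 and 20.3 CPM). Ccl8 in M5 had 8 UDSP-Hep UMIs, and the ratio interval of Ccl7 in M8 ran from 0.394 to 1.09. The part of free RNA in such values was not tested. No cluster among the 11 had Ccr2 past the fold in either direction, and Cx3cr1 was past it on the higher side in 2, where between 4.72% and 14.1% of all genes were, and on the lower side in 2.

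**Figure D2:**
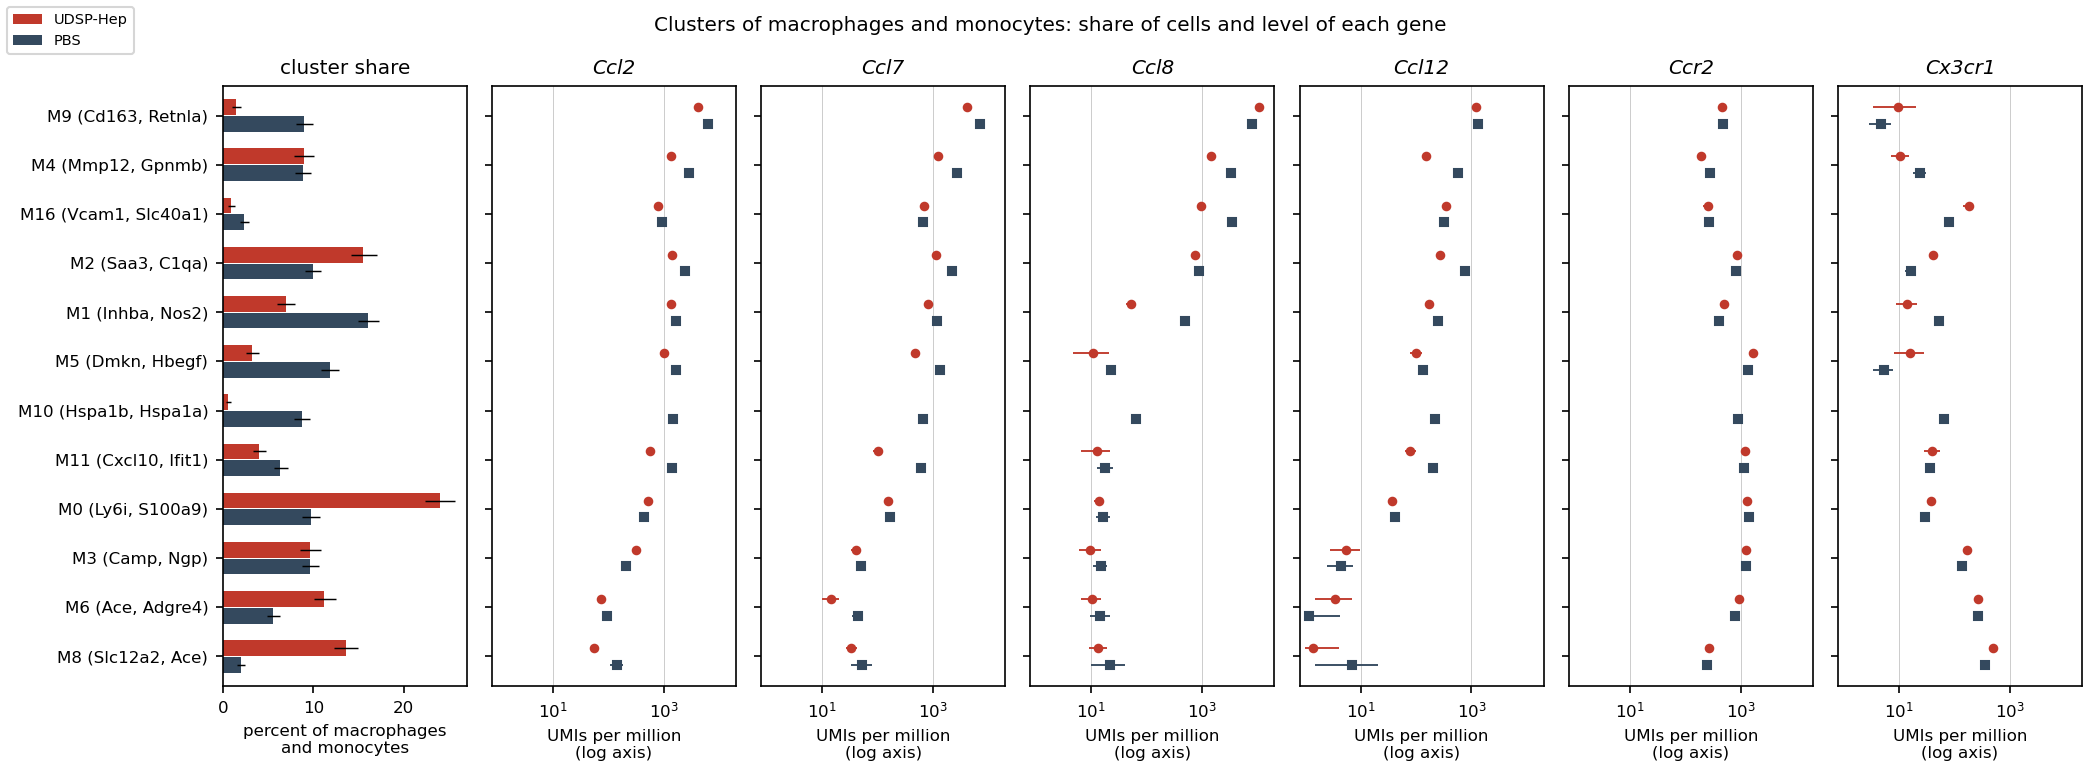
Share of macrophages and monocytes in each of 12 clusters (bars, 95% exact binomial intervals) and the level of each gene in them (CPM, log axis, 95% counting intervals), with UDSP-Hep above PBS. M9 has the highest level of every ligand and 1.43% of the UDSP-Hep class, against 9.01% of the PBS class, while M0, low in the ligands, has 24.0% and 9.70%; the level of M10 is not drawn for UDSP-Hep, where it has 15 cells.

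The difference in the class total was split by weighing the cluster levels of one library by the cluster makeup of the other. With UDSP-Hep levels in PBS proportions, the log2 ratio of Ccl2 was -0.61, that of Ccl7 was -0.86 and that of Ccl12 was -0.65, against measured values of -1.18, -1.50 and -1.49. For Ccl8 the same weighing gave -0.04, against a measured -1.33. With PBS levels in UDSP-Hep proportions, Ccl8 had -0.84, Ccl2 -0.51, Ccl7 -0.59 and Ccl12 -0.32. In PBS proportions, therefore, Ccl2, Ccl7 and Ccl12 were still lower in UDSP-Hep. For every gene this weighing also used UDSP-Hep levels from only 15 cells of M10, a cluster with 8.73% of the PBS cells of the class. Those of M16 came from 23 UDSP-Hep cells. The near equality of Ccl8 rests on the 38 UDSP-Hep cells of M9, the cluster that held 36302 of the 59290 PBS Ccl8 UMIs and in which the ratio was 1.30. In M1, M4 and M16 the Ccl8 ratio was 0.105, 0.438 and 0.276. Leaving out M9 gave -0.83 for Ccl2, -0.98 for Ccl7, -0.86 for Ccl8 and -1.26 for Ccl12. The clusters were drawn from the same cells, and this weighing was added after the values were seen.

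**Figure D3:**
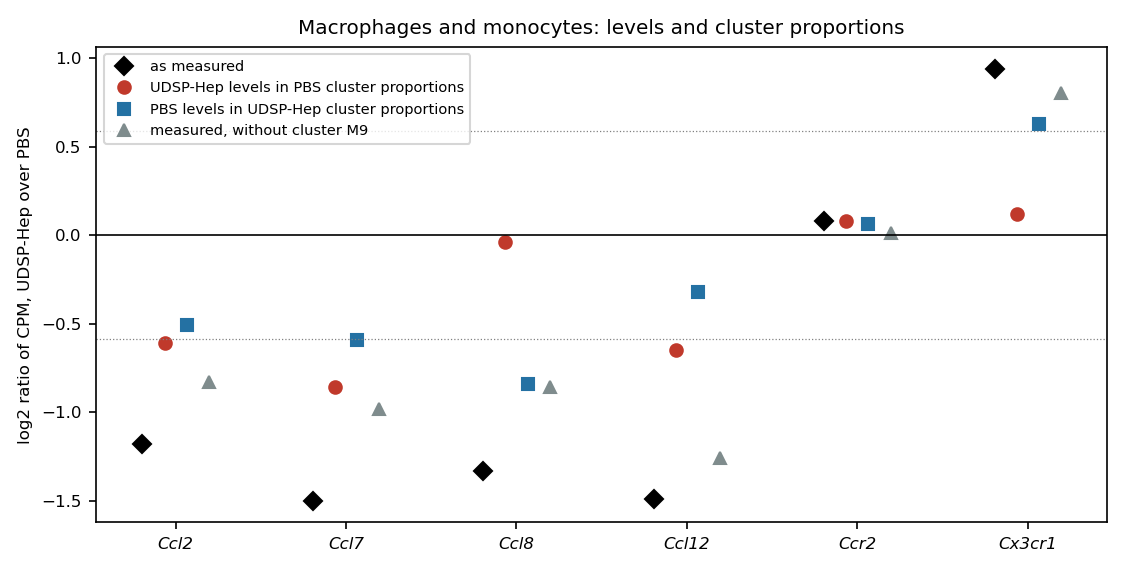
Log2 ratio of UDSP-Hep over PBS in macrophages and monocytes for each gene as measured, with UDSP-Hep levels in PBS cluster proportions, with PBS levels in UDSP-Hep cluster proportions, and without cluster M9; dotted lines mark the fold of 1.5. For Ccl8 the value moves to -0.04 with PBS proportions, while Ccl2, Ccl7 and Ccl12 stay between -0.61 and -0.86.

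Outside the macrophages and monocytes, dendritic cells had far lower ligand levels than macrophages. The pooled neutrophil values of Ccl2, Ccl7 and Ccl8 were above those of classical monocytes, but they rest on few cells, as given below. In cDC2, a class of conventional dendritic cells, Ccl2 had 41.1 CPM in UDSP-Hep and 83.5 CPM in PBS, and all 4 ligands were past the fold on the lower side, beside 3.47% of all genes. In UDSP-Hep, cDC2 Ccl8 rested on 15 UMIs (5.98 CPM) and Ccl12 on 5 (1.99 CPM). Both were under the UDSP-Hep levels of T and NK cells (21.9 and 4.39 CPM). Under alternative processing the cDC2 log2 ratios of Ccl2 and Ccl7 came as near to equality as -0.23 and -0.16, short of the fold. Mature dendritic cells went the other way, with Ccl2 at 91.5 CPM in UDSP-Hep and 22.2 CPM in PBS and Ccl8 at 87.5 and 12.9 CPM. Of the 70 UDSP-Hep Ccl2 UMIs in that class 56 came from 1 cell, and of the 67 Ccl8 UMIs 65 came from 1 cell. Their summed macrophage markers were 759 CPM in UDSP-Hep and 103 CPM in PBS, and the part of these in the ligand values was not tested. In neutrophils Ccl2 had 437 CPM in UDSP-Hep and 839 CPM in PBS. The UDSP-Hep value came from 1104 UMIs in 101 of 871 cells, of which 168 were in 1 cell, and the PBS value from 150 UMIs in 10 of 58 cells, of which 114 were in 1 cell. Neutrophil Ccl7 had 341 CPM in UDSP-Hep and 845 CPM in PBS, and Ccl8 had 206 and 515 CPM. Without the highest cell of each library the log2 ratio of neutrophil Ccl2 was 0.80, against -0.94 with it. In regulatory T cells, 123 of the 146 UDSP-Hep UMIs of Ccl8 were in 1 cell. No direction is read from mature dendritic cells, neutrophils or regulatory T cells for these ligands, and no order between neutrophils and classical monocytes.

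The promoters of Ccl12 and Ccl8, neighbours and the ligand pair most alike in coding sequence, are shown because all 4 ligands were lower together in macrophages and these 2 were matched in the RefSeq table (GRCm38.p6). In all, 4 of the 6 genes were matched, and the 250 bases before the start are printed, 5′ to 3′ on the plus strand. The capitals mark the letters TATAAA, which lie 31 bases before the start of Ccl12 and 32 bases before that of Ccl8.
Ccl12, chr11:82101595-82101844: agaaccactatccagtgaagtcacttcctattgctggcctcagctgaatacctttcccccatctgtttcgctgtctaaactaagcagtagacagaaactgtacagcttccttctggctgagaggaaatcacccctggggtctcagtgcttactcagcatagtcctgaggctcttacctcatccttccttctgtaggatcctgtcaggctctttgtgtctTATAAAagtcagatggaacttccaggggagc
Ccl8, chr11:82114935-82115184: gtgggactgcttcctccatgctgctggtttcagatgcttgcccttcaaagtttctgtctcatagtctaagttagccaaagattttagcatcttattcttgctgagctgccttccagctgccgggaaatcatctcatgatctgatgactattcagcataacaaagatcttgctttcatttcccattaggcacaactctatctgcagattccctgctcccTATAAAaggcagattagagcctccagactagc

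Among 32851 promoters of the same table, 13.6% held TATAAA on either strand. The other motifs searched on both strands were TGANTCA, held by 7.81% of promoters, TTCNNNGAA, held by 8.30%, a shortened interferon-stimulated response element, held by 3.44%, and a shortened NF-kappaB site, held by 20.7%. None of these 4 was in the promoters of Ccl8, Ccl12, Ccr2 or Cx3cr1. A match or its absence is a description of letters in this window only.

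Ccr2, the receptor of the ligands above, was highest in classical monocytes in both libraries. There it had 1243 CPM in UDSP-Hep and 1201 CPM in PBS, a ratio of 1.04 (0.995 to 1.08), with summed classical monocyte markers of 15631 and 14903 CPM. The order then ran through the unresolved macrophages or monocytes, with 1179.5 CPM in UDSP-Hep and 979 CPM in PBS, and the unresolved dendritic cells, with 982 and 820.4 CPM. Regulatory T cells (784 CPM in UDSP-Hep, 733 CPM in PBS) and NK cells (652 and 739 CPM) came next. In UDSP-Hep the neighbours NK cells and macrophages, and macrophages and nonclassical monocytes, did not differ beyond counting error. In PBS this held for NK cells and regulatory T cells, and for regulatory T cells and nonclassical monocytes. Macrophages had 629.6 CPM in UDSP-Hep and 546 CPM in PBS. Among the macrophage and monocyte clusters, Ccr2 was lowest in M4 in UDSP-Hep (195 CPM, against 282 CPM in PBS) and in the nonclassical cluster M8 in PBS (266 CPM in UDSP-Hep, against 248 CPM in PBS). It was highest in UDSP-Hep in M5, led by Dmkn and Hbegf, with 1651 CPM in UDSP-Hep and 1350.2 CPM in PBS, and highest in PBS in M0, with 1327 and 1415 CPM.

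The thinned share of macrophages and monocytes with a Ccr2 UMI was 48.4% in UDSP-Hep and 48.4% in PBS, and 79.6% and 81.7% without thinning. At 2000 UMIs a cell, any ligand was detected in 41.2% of UDSP-Hep cells with Ccr2 and 42.4% of those without, and in 55.9% and 66.3% of the corresponding PBS cells. Ccr2 and its ligands were therefore detected together in many cells of both libraries. Within single clusters, the PBS shares with and without Ccr2 were 33.9% and 32.1% in M0, 65.6% and 63.6% in M1 and 77.0% and 77.1% in M2. They were 32.5% and 34.6% in M3, 87.5% and 85.0% in M4 and 60.0% and 51.7% in M5. The pooled PBS gap is thus not read as a contrast between cells of the same cluster.

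Dendritic cells also carried Ccr2, with 1254 UMIs in the 166 UDSP-Hep cDC2 and 1903 UMIs in the 295 PBS cDC2 (CPM ratio 1.30, 1.21 to 1.40). Mature dendritic cells, which leave tissue through another receptor, were near the bottom of the order, with 74.5 CPM in UDSP-Hep and 13.6 CPM in PBS from 57 and 35 UMIs. In the clusters that held most NK cells, the level differed more between clusters than between libraries. Cluster T0, led by Car2 and Eomes, had 854 CPM in UDSP-Hep and 940.0 CPM in PBS, and T1, led by S1pr5 and Cma1, had 363 and 342 CPM.

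In CD8 T cells Ccr2 had 288 CPM in UDSP-Hep and 122 CPM in PBS, a ratio of 2.36 (2.13 to 2.61). There 2 of the 6 genes, Ccr2 and Cx3cr1, were past the fold on the higher side, beside 12.1% of all genes. The class was made of different clusters in the 2 libraries. T4, led by Gzmk and interferon-induced genes, held 264 of the 408 UDSP-Hep cells and 108 of the 455 PBS cells, and T5, led by Gzmf and Havcr2, held 100 and 223. In T4, Ccr2 had 317 CPM in UDSP-Hep and 346 CPM in PBS, and in T5 it had 243 and 117 CPM. In T8, the cycling CD8 T cells, it had 293 CPM in UDSP-Hep and 79.8 CPM in PBS.

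Cx3cr1 was highest in nonclassical monocytes in both libraries, with 382 CPM in UDSP-Hep and 287 CPM in PBS, a ratio of 1.33 (1.22 to 1.47). Cx3cr1 itself is commonly used to mark these cells, but it had no part in the clusters here. The class held 659 UDSP-Hep and 300 PBS cells, and its summed nonclassical markers were 4889 CPM in UDSP-Hep and 3396 CPM in PBS. Its summed classical monocyte markers were also high, at 10020.1 CPM in UDSP-Hep and 11016 CPM in PBS. In the classical monocyte class that sum was 15631 CPM in UDSP-Hep and 14903 CPM in PBS. Whether the nonclassical class holds mixed or intermediate cells was not tested. Its Ccr2 had 616 CPM in UDSP-Hep and 693 CPM in PBS. Of its clusters, M8 had the higher Cx3cr1, with 499 CPM in UDSP-Hep and 360.4 CPM in PBS, and M6 had 271 and 269 CPM with Ccr2 at 949.6 and 801 CPM. M8 held 361 UDSP-Hep and 79 PBS cells, and M6 made up 11.2% of UDSP-Hep and 5.59% of PBS macrophages and monocytes.

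The higher Cx3cr1 of macrophages and monocytes moved with these clusters. With UDSP-Hep levels in PBS cluster proportions its log2 ratio was 0.12, against a measured 0.94, and with PBS levels in UDSP-Hep proportions it was 0.63. In classical monocytes Cx3cr1 had 129 CPM in UDSP-Hep and 98.4 CPM in PBS (ratio 1.31). Macrophages had 36.6 CPM in UDSP-Hep and 22.6 CPM in PBS (1.62, 1.39 to 1.88), but the log2 ratio was -0.70 with coarser clusters (resolution 0.5). Within the class, M2 had 41.9 CPM in UDSP-Hep and 16.3 CPM in PBS (2.56), and M4 had 10.5 and 23.7 CPM (0.445). In M1 the direction was that of M4, with 14.0 CPM in UDSP-Hep and 53.4 CPM in PBS. The thinned share of macrophages and monocytes with a Cx3cr1 UMI was 11.4% in UDSP-Hep and 4.71% in PBS (33.1% and 16.6% unthinned).

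**Figure D4:**
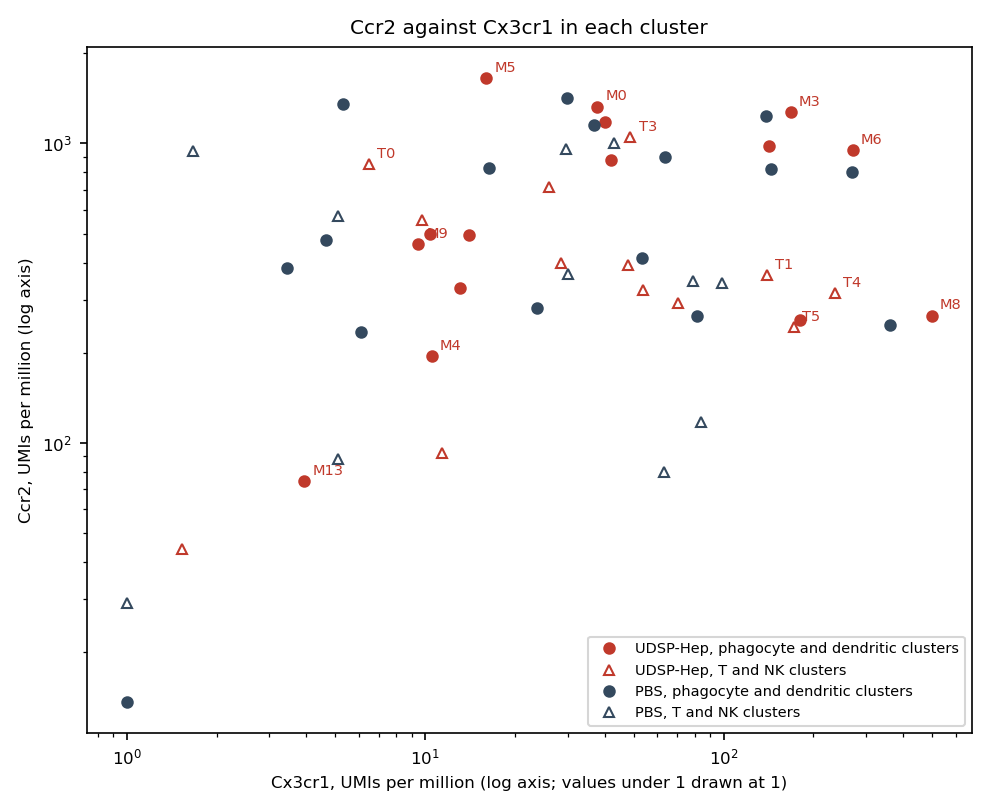
Level of Ccr2 (vertical) against that of Cx3cr1 (horizontal), both in CPM on log axes, in each cluster drawn; filled circles are phagocyte and dendritic clusters, open triangles T and NK clusters, red UDSP-Hep and dark blue PBS. The nonclassical monocyte cluster M8 has the highest Cx3cr1 among the macrophage and monocyte clusters, 499 CPM in UDSP-Hep and 360.4 CPM in PBS, and low Ccr2, and the NK clusters T0 and T1 lie apart, T0 with high Ccr2 and little Cx3cr1.

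In lymphocytes, Cx3cr1 was highest in CD8 T cells and, among NK cells, in the cluster T1. CD8 T cells had 163 CPM in UDSP-Hep and 73.7 CPM in PBS, a ratio of 2.20 (1.93 to 2.52). Unlike Ccr2, Cx3cr1 was higher within T4, with 236 CPM in UDSP-Hep and 78.9 CPM in PBS, as well as within T5, with 172 and 84.1 CPM. In T8, where Ccr2 was higher in UDSP-Hep, Cx3cr1 did not differ beyond counting error. It had 70.4 CPM in UDSP-Hep and 63.3 CPM in PBS there (ratio 1.11, 0.827 to 1.48). NK cells had 58.9 CPM in UDSP-Hep and 33.5 CPM in PBS, and this 1 gene of the 6 was past the fold on the higher side, beside 6.07% of all genes. T1 had 140.0 CPM in UDSP-Hep and 99.1 CPM in PBS, whereas T0 had 6.46 and 1.66 CPM. At 2000 UMIs a cell, Cx3cr1 was detected in 30 of 770 UDSP-Hep NK cells with Ccr2 and 75 of 575 without it, and in 6 of 231 and 18 of 174 PBS NK cells. In the pooled class it was thus more frequent in NK cells without Ccr2 in both libraries. The class pools T0, with more Ccr2, and T1, with more Cx3cr1, so these shares are not read as a contrast within a cluster.

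A list of 24 other genes of the pathway, taken with earlier results known, was read in macrophages and monocytes. Of these, 3 were past the fold on the higher side, none on the lower side, 16 were in neither and 5 had too few UMIs, where 9.26% of all genes were higher and 4.92% lower. The median log2 ratio of the list was 0.19, beside 0.12 over all genes. The genes past the fold were Ccrl2, an atypical chemoattractant receptor that does not signal through G proteins, Grk3, a kinase that desensitises G protein-coupled receptors, and Ccr3, an eotaxin receptor. Ccrl2 had 311 CPM in UDSP-Hep and 178 CPM in PBS (ratio 1.75). Grk3 had 99.6 CPM in UDSP-Hep and 51.8 CPM in PBS (1.92). Ccr3 was near the limit of detection, at 1.18 CPM in UDSP-Hep and 0.630 CPM in PBS. Of the other receptors for these ligands, Ccr1 had 300.4 CPM in UDSP-Hep and 381 CPM in PBS (0.789). Cx3cl1, the gene of fractalkine, had 4 UMIs in UDSP-Hep and 10 in PBS, too few to compare.

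Likeness between genes was measured as Pearson's r over log2(CPM + 10) in 28 profiles, 14 classes in each of the libraries, which share depth and free RNA within a library. It is a description of 6306 genes with no p. Ccl7 and Ccl12 were most alike among the 6 (r = 0.962), then Ccl2 and Ccl7 (0.942), while Ccl8 and Ccr2 had 0.013 and Ccr2 and Cx3cr1 had 0.554. Outside the 6, the genes most like Ccl2 included Ctsl, a lysosomal protease (0.946), and Plin2, a lipid droplet protein (0.928). For Ccl7 they were Arg1, arginase (0.948), Ctsl (0.935) and Flrt2 (0.934), and for Ccl12 they were Flrt2 (0.919), Arg1 (0.918) and the collagenase gene Mmp13 (0.911). Ccl8 was most like Atp6v0d2, a subunit of the vacuolar proton pump (0.938), the growth factor Igf1 (0.927) and the chemokine Pf4 (0.919). For Ccr2 they were Ssr1 (0.886), Emp3 (0.868) and Lamtor4 (0.843), and for Cx3cr1 Cpt1a (0.789), Pou2f2 (0.783) and Adgre5 (0.780).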

How the data were processed

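The deposited matrices hold UMI counts, neither normalized nor scaled. Per the submitters' processing notes they came from Cell Ranger 7.0.0 with mm10, and Seurat is named with no role. The authors' own filter on barcodes is not known, and the smallest total was 500 UMIs. A floor of 200 genes and 500 UMIs a barcode and a ceiling of 10% mitochondrial UMIs removed 197 UDSP-Hep and 245 PBS barcodes. Scrublet's own threshold marked 0 and 0.0138% of barcodes and had not worked, so the highest scores were removed at 0.8% per 1000 barcodes (492 UDSP-Hep and 435 PBS cells). Clustering used scanpy 1.11.5 and leidenalg 0.10.2 (2000 variable genes without the 6 genes, 30 components, 15 neighbours, resolution 1.0). Clusters were named from marker lists, with naming thresholds set after the clusters were seen. UMIs were summed per class and library and given as CPM with exact Poisson intervals (scipy 1.17.1), and ratios with exact conditional binomial intervals, all at 95%. A count of 0 allows 3 counts. With no replicates, no test was run. The ratio step was tested on summed counts simulated with counting error only. That simulation held no spread between cells or tumours, so it cannot speak to either. Named genes were the 6 genes, a pathway list and, for each of the 6, the 3 most alike genes among those reaching 50 CPM in a profile. Some of these genes are not reported here. The 6 genes, the markers and the lists were chosen with earlier results of these data known. Coordinates and coding sequences came from GENCODE on GRCm38 and promoters from RefSeq. Scaling, doublets, filters, resolution, weighing and thinning were varied.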

Additional observations from a re-analysis of the deposited data

Results flagged for a closer look

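For each gene but Ccl12, the class with the highest and the class with the lowest counted log2 ratio of UDSP-Hep over PBS went in opposite directions, and none of these differences was tested, since there is 1 library per group. Ccl2 had 2.04 in mature dendritic cells and -1.21 in macrophages, and without the highest cell of each library the mature dendritic value was -0.17. Ccl7 had 0.72 in mature dendritic cells and -2.19 in classical monocytes, and the mature dendritic value was -0.39 without the highest cells. Ccl8 had 2.77 in mature dendritic cells and -3.10 in unresolved macrophages or monocytes, and the mature dendritic value was -2.09 without the highest cells. Ccr2 had 2.45 in mature dendritic cells and -1.97 in neutrophils, and without the highest cells these were 2.16 and -1.20. The mature dendritic class had summed macrophage markers of 759 CPM in UDSP-Hep and 103 CPM in PBS. The part of macrophage RNA in its Ccr2 value was not tested. Cx3cr1 had 1.25 in unresolved T cells, 1.23 without the highest cells, and -1.97 in neutrophils, where PBS had 58 cells.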

How the results depend on the processing

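No paired analysis was possible because each group is 1 library, and for the same reason no replicate could be left out. In macrophages and monocytes the log2 ratios of the 5 genes past the fold kept their direction under every alternative run, but Ccl8 and Cx3cr1 came under the fold where clusters were weighed alike or by PBS proportions. Over all alternatives Ccl2 lay between -1.31 and -0.61, Ccl7 between -1.78 and -0.86, Ccl8 between -1.94 and -0.04, Ccl12 between -2.12 and -0.61, Ccr2 between -0.04 and 0.09 and Cx3cr1 between 0.12 and 1.24. Of 88 such values, 35 stayed within the counting interval and 53 did not. Values that left it are given in the order Ccl2, Ccl7, Ccl8, Ccl12, Ccr2, Cx3cr1, each gene named where some are missing. Median-of-ratios scaling gave -1.30, -1.61, -1.44, -1.61, -0.04 and 0.82. Keeping doublets gave Ccl8 -1.28, Ccl12 -1.42 and Ccr2 0.03. A limit of 20% mitochondrial UMIs gave Ccl2 -1.15, Ccl7 -1.47 and Ccl8 -1.29. Leiden resolution 2.0 gave Ccl2 -1.23, Ccl7 -1.57, Ccl8 -1.28, Ccl12 -1.63 and Ccr2 0.01. Weighing every cell the same gave Ccl2 -1.28, Ccl7 -1.67, Ccl8 -1.85, Ccl12 -1.61 and Cx3cr1 1.24. Thinning to 1000 UMIs gave Ccl2 -1.26, Ccl7 -1.64, Ccl8 -1.94 and Cx3cr1 1.14. Weighing every cluster the same gave Ccl2 -0.65, Ccl7 -0.86, Ccl8 -0.24, Ccl12 -0.61 and Cx3cr1 0.34. Cells gated one by one, at 3 or more marker UMIs, gave Ccl2 -1.31, Ccl7 -1.78, Ccl8 -1.84, Ccl12 -2.12 and Ccr2 0.00. Alternatives added after seeing the data gave further values. Without M9 they were -0.83, -0.98, -0.86, -1.26, 0.01 and 0.80, and without M10 Ccl2 -1.21, Ccl7 -1.56 and Ccl8 -1.42. UDSP-Hep levels with PBS cluster weights gave Ccl2 -0.61, Ccl7 -0.86, Ccl8 -0.04, Ccl12 -0.65 and Cx3cr1 0.12. Without each library's highest cell for the gene, Ccl8 had -1.38 and Ccl12 -1.56. With the T and NK cell level subtracted, Ccl8 had -1.36. The cause of these moves was not tested.

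The share of macrophages and monocytes with any ligand was 41.7% in UDSP-Hep and 59.5% in PBS at 2000 UMIs and 63.0% and 79.3% unthinned. That with Ccr2 was 63.9% and 65.1% at 2000 UMIs and 79.6% and 81.7% unthinned. With no filter on summed UMIs 3072 genes were higher and 2803 lower, and with at least 500 summed UMIs 466 and 239, against 1056 and 561. In finer classes 23 of 800 values reversed. In dendritic cells Ccl7 had 0.10 at 20% mitochondrial UMIs and 0.23 with clusters weighed the same, and Ccl8 had 0.13 with cells weighed the same. Macrophage Cx3cr1 had -0.70 at resolution 0.5. Mature dendritic Ccl2 and Ccl7 had -0.57 and -2.05 with doublets kept, and without the highest cells Ccl2, Ccl7 and Ccl8 had -0.17, -0.39 and -2.09. At resolution 2.0, Ccl7 in unresolved dendritic cells had 0.47 and Ccr2 in unresolved T cells had -0.03. In neutrophils Ccl2 and Ccl8 had 0.44 and 0.76 at 20% mitochondrial UMIs and 0.10 and 0.80 at resolution 2.0. Neutrophil Cx3cr1 had 0.96 with cells weighed the same, and Ccl2, Ccl7 and Ccl12 had 0.80, 0.65 and 1.37 without the highest cells. In regulatory T cells Ccl8 had -1.11 with doublets kept, -2.21 at resolution 0.5 and -0.92 without the highest cells, and Ccl2 had 0.29 when thinned. The PBS library had 58 neutrophils and the UDSP-Hep library 59 mature dendritic cells, which limits values in both classes.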
